A study of Mus musculus with 3 samples.

Results

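The Mir22 hairpin is a single mouse miRNA gene, here described from every small RNA read that aligned to it in MIN6 cells. Its members were the alignments on the plus strand of chromosome 11 with a 5′-start between 75277205 and 75277300 in the mm9 build. They comprised 227461 of 9269795 mapped reads in replicate 1, 243039 of 10816006 in replicate 2 and 232642 of 10218743 in replicate 3. The reads formed 399 distinct alignments with 15 different 5′-starts, compared with 1111703 distinct 5′-starts in the whole series.

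MIN6 cells were derived from an insulin-secreting tumour of the mouse pancreas and are a model of beta cells. All 3 libraries came from MIN6 cells grown in DMEM with 25 mM glucose and fetal bovine serum, with no other treatment or genotype, so the series holds 1 condition and no contrast between groups. The labels number the 3 libraries as replicates, and the study's methods call them biological replicates. The design asks which miRNAs and which of their sequence variants (isomiRs) these cells contain. Among miRNAs enriched in pancreatic islets, miR-7a-5p was present at 210 ± 22.9 and 195 ± 21.2 RPM (reads per 1000000 mapped reads, mean ± SD, n = 3) at its 2 genomic copies. Reads that fit several loci were divided among them, so these are not separate measures of each copy.

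A miRNA hairpin is cut first by Drosha in the nucleus and then by Dicer in the cytoplasm, which leaves a short duplex of a 5p and a 3p strand. One strand is usually kept by an Argonaute protein, and its seed, bases 2 to 8, pairs with target messenger RNAs. A shift of the 5′-end by a single base therefore changes the seed, whereas a change of the 3′-end does not. Terminal transferases can add A or U to the 3′-end, and ADAR enzymes can change A to inosine, which is read as G. miR-22 is a conserved vertebrate miRNA that is made in many tissues and has been studied mainly in heart muscle and blood cell cancers.

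The RefSeq hairpin (GRCm38.p6 sequence) is shown first because all reads are described by their place in it, with the 2 mature arms in capitals. Laid along the alignments by the start of miR-22-3p, it covers chr11:75277218-75277312 of mm9, plus strand.
Mir22 hairpin: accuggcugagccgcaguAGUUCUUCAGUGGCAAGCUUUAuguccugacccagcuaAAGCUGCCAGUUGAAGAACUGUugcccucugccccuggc

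The mature arms are shown with their seeds in capitals. miR-22-5p covers chr11:75277236-75277257 and miR-22-3p covers chr11:75277274-75277295.
miR-22-5p: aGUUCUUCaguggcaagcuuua
miR-22-3p: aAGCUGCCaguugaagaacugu

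Both arms were 22 nt long, with 16 nt between them, and their seeds were not shared with any other of 1738 RefSeq mature mouse miRNAs searched. RNAfold predicted a stem with a minimum free energy of -41.9 kcal/mol for the 95-nt hairpin. In that fold 19 of the 22 bases of miR-22-3p paired with miR-22-5p. The single unpaired bases inside the duplex were position 10 of the 3p arm and position 16 of the 5p arm, and the 3p arm extended 2 nt beyond the 5′-end of the 5p arm. None of the 793 mismatching bases inside the hairpin, counted in each alignment of each library, was equal to the RefSeq base at its position. The reads and this sequence were therefore placed without conflict. In the GRCm38 annotation Mir22 (chr11:75463716-75463810) lies inside exon 2 of Mir22hg, its non-coding host gene, and inside exon 2 of a transcript of the protein-coding gene Tlcd2.

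The hairpin reached 24538 RPM in replicate 1, 22470 RPM in replicate 2 and 22766 RPM in replicate 3, with a mean of 23258 ± 1118 RPM (SD, n = 3). It held 2.45% of the mapped reads in replicate 1 (95% Wilson interval 2.44% to 2.46%), 2.25% in replicate 2 (2.24% to 2.26%) and 2.28% in replicate 3 (2.27% to 2.29%). Replicate 1 was thus above the other libraries by more than counting error. Such intervals cover counting error only, since reads without molecular identifiers are not independent molecules. No read aligned to the minus strand of the hairpin or within 40 nt outside the window on the plus strand in any library, where 0 reads allow up to 3 reads, or 0.324, 0.277 and 0.294 RPM in replicates 1, 2 and 3.

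The share of a miRNA among mapped reads also depends on the most abundant 5′-start of the libraries, which took 33.4%, 35.7% and 37.1% of the mapped reads in replicates 1, 2 and 3. Without the reads of that start in the denominator, the hairpin reached 36859, 34968 and 36198 RPM, a mean of 36008 ± 960 RPM (SD, n = 3). Replicate 1 remained the highest and replicate 2 the lowest, but replicate 3 then lay nearer to replicate 1. This denominator was chosen after seeing the data.

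Almost all of the product came from the 3p arm. miR-22-3p and its shifted forms had 227285, 242872 and 232488 reads in replicates 1, 2 and 3, whereas the 5p arm had 173, 167 and 152 reads. The 5p arm was therefore 0.0761% (95% Wilson interval 0.0655% to 0.0883%), 0.0687% (0.0591% to 0.0800%) and 0.0653% (0.0557% to 0.0766%) of the hairpin reads. The 3 intervals overlap, and a difference in arm use between the libraries was not tested. Per 5p read there were 1314, 1454 and 1530 reads of the 3p arm, a mean of 1433 ± 110 (SD, n = 3).

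At 16.3 ± 2.04 RPM the 5p strand was nevertheless measured well above the level of 3 reads in each library. Only 5 reads lay between the arms by their start, 3 in replicate 1 and 2 in replicate 3. All 5 were 38 nt long and ran from the first base after miR-22-5p to the last base of miR-22-3p, and so contained the whole terminal loop joined to the 3p arm.

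The 5′-end of miR-22-3p was fixed to the base in nearly all reads. Its reference start had 226309 reads in replicate 1, 241833 in replicate 2 and 231473 in replicate 3, which were 99.5706%, 99.5725% and 99.5637% of the reads of the 3p arm. The mean was 99.5689 ± 0.00462% (SD, n = 3), and each library's value lay inside the 95% Wilson intervals of the others (99.5429% to 99.5966%, 99.5455% to 99.5974% and 99.5358% to 99.5894%). On the 5p arm, 172 of 173, 167 of 167 and 152 of 152 reads began at the RefSeq start.

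**Figure D1:**
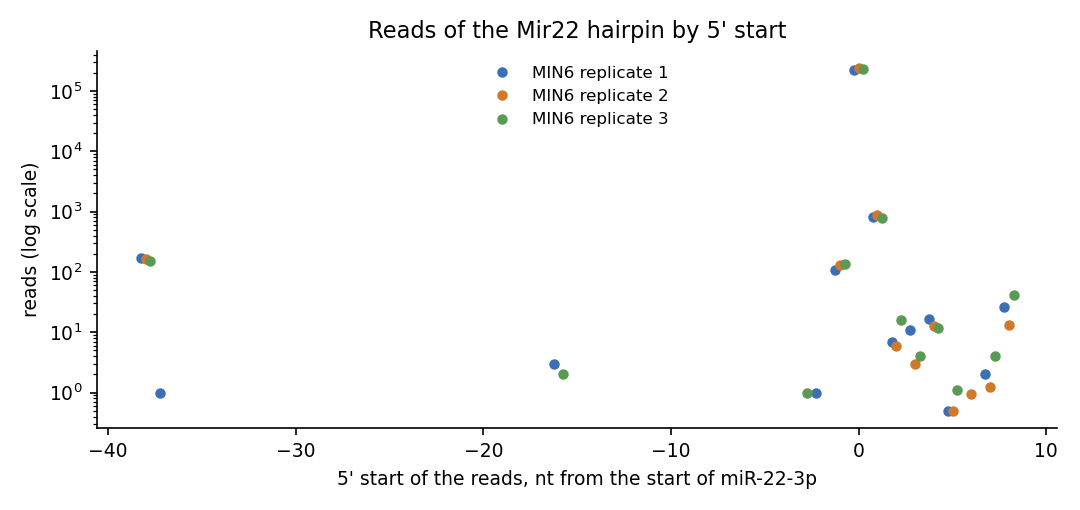
Reads of the Mir22 hairpin by 5′-start in the 3 MIN6 libraries, with the distance from the start of miR-22-3p in nt on the x axis and reads on a log scale on the y axis, starts without reads left out. The reference start of miR-22-3p holds 226309 to 241833 reads per library, the start 1 base downstream 799 to 872, the start 1 base upstream between 109 and 136, and the start of miR-22-5p between 152 and 172.

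A start 1 base downstream of the reference, miR-22-3p+1, was the most abundant 5′-shifted form. It had 803, 872 and 799 reads, or 0.353%, 0.359% and 0.344% of the arm, a mean of 81.8 ± 4.34 RPM (SD, n = 3). The 95% Wilson intervals (0.330% to 0.379%, 0.336% to 0.384% and 0.321% to 0.368%) overlap. This shifted form alone was above the whole 5p arm in each library, with 86.6, 80.6 and 78.2 RPM compared with 18.7, 15.4 and 14.9 RPM. Its seed differs from that of the reference form and is the seed of 1 other RefSeq miRNA, miR-3966. The sequences are shown to compare the seeds, in capitals.
miR-22-3p: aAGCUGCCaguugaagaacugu
miR-22-3p+1: aGCUGCCAguugaagaacugu

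A start 1 base upstream, miR-22-3p-1, had 109, 129 and 136 reads, or 0.0480%, 0.0531% and 0.0585% of the arm, at 12.3 ± 0.851 RPM (SD, n = 3). Most of these reads did not carry the genome's base at their first position. The hairpin has an A there, while 82 of 109, 102 of 129 and 100 of 136 reads began with C, written A1C with positions counted from the 5′-end of the read. These were 75.2%, 79.1% and 73.5% of the reads at this start (95% Wilson intervals 66.4% to 82.4%, 71.3% to 85.2% and 65.5% to 80.2%), and no read at this start had another mismatch at its first base. The genomic form, whose seed in capitals is held by no other RefSeq miRNA, and the form read most often, whose mismatching base is in capitals, are shown side by side.
miR-22-3p-1 in the genome: aAAGCUGCcaguugaagaacugu
miR-22-3p-1 as most often read: Caagcugccaguugaagaacugu

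The same measure was taken for 26 other named miRNAs with at least 30 reads in each library 1 base before their own start. Their share of reads with a mismatching first base had a median of 0.730% and ranged from 0% to 99.8%, and 24 of the 26 were lower than miR-22-3p-1. miR-26a-5p (99.8%) and miR-182-5p (94.6%) were higher, and miR-148a-3p followed at 39.5%. Where the mismatching base occurred in at least 30 reads, C made up a median of 97.2% of such bases over 7 other miRNAs (60% to 100%). Where the genome itself has C before a miRNA, such reads carry no mismatch, so the low shares of other miRNAs are not evidence that a leading C was absent. The source of the leading C was not tested.

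Apart from these, 2 starts inside the mature sequence reached 10 reads in each library. The start 4 nt downstream had 16.5, 12.5 and 11.7 reads, and the start 8 nt downstream had 25.9, 13.1 and 41.5 reads. Their read numbers are not whole because short reads that fit several loci were divided among them by the authors. Alignments with a read number that is not whole held 4.18% of the reads at the start 4 nt downstream. Divided reads can add up to a whole number, so this share is a lower limit. At the start 8 nt downstream such alignments held 100%, so none of its reads is particular to this hairpin. The other 9 starts had 0 to 16 reads each, and 4 of them had reads in each library.

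Length was also uniform on the 3p arm but not on the 5p arm. Reads of 22 nt, which end on the last base of the RefSeq miRNA, made up 97.5% of the miR-22-3p reads in replicate 1, 97.5% in replicate 2 and 97.3% in replicate 3, a mean of 97.4 ± 0.128% (SD, n = 3). Reads of 21 nt followed with 1.27%, 1.26% and 1.47%. All other lengths were below 1%, with means of 0.690% at 20 nt, 0.238% at 19 nt and 0.299% at 23 nt. Reads shorter than 22 nt (2.26 ± 0.1196%) outnumbered longer ones (0.318 ± 0.00930%, SD, n = 3) in each library.

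miR-22-5p most often lacked the last base of its RefSeq sequence. Reads of 21 nt numbered 89, 91 and 89 (51.7%, 54.5% and 58.6% of its reads), those of 22 nt 53, 36 and 27 (30.8%, 21.6% and 17.8%), and those of 20 nt 27, 35 and 24 (15.7%, 20.96% and 15.8%). The 21-nt form was the most frequent in each library, and the mean length was 21.03 ± 0.0950 nt compared with 21.97 ± 0.00110 nt for miR-22-3p (SD, n = 3). The 21-nt form is shown because it is the one most often read.
miR-22-5p, 21 nt: aguucuucaguggcaagcuuu

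**Figure D2:**
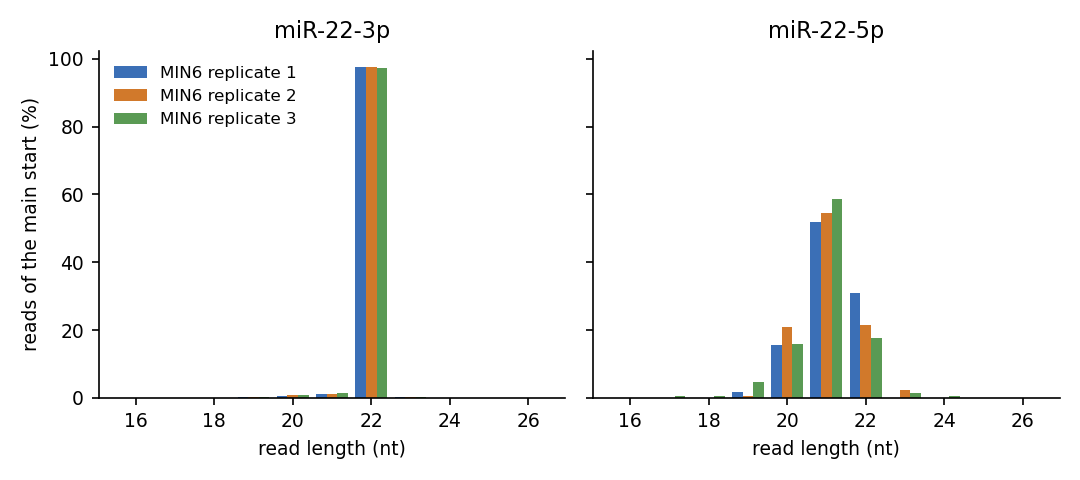
Share of reads (%, y axis) by read length in nt (x axis) at the main start of miR-22-3p (left) and of miR-22-5p (right), with 1 bar per MIN6 library. Reads of 22 nt make up over 97% of miR-22-3p in each library, while miR-22-5p is spread over 20 nt, 21 nt and 22 nt with most reads at 21 nt.

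Few miR-22-3p reads ended in a base that the genome does not have. A last base that differed from the hairpin was found in 0.535%, 0.572% and 0.554% of the reads, a mean of 0.554 ± 0.0185% (SD, n = 3). Such a base was A in 0.257 ± 0.00446%, G in 0.254 ± 0.0170%, C in 0.0283 ± 0.000582% and U in 0.0136 ± 0.00222% of the reads. Among bases that the genome does not have, U was thus the rarest. The sequence limits this order, because the hairpin has U at positions 20, 22 and 23, where a U cannot be a mismatch.

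The most frequent form had G in place of the last base of the miRNA (U22G, 541, 656 and 580 reads), and was 45.9% of all such reads. The reads do not tell a changed last base from a G added after position 21. The next form had an A after the complete miRNA (U23A, 420, 468 and 454 reads, 0.192 ± 0.00549% of the reads), and was 34.6% of all reads with a mismatching last base. Position 22 read as A (U22A) had 139, 135 and 135 reads, and position 22 read as C (U22C) had 51, 58 and 59. The form with the added A, in capitals, is shown as the main one that lengthens the miRNA.
miR-22-3p with added A: aagcugccaguugaagaacuguA

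The hairpin itself continues with UGCCC after miR-22-3p. A single U added to the complete miRNA therefore cannot be told apart from a read that ends 1 base further in the genome, and the 200, 224 and 232 reads of 23 nt without a mismatch could be either. On the 5p arm 2 reads in each library had a mismatching last base.

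Mismatches inside the read were concentrated at 3 positions. An internal mismatch was present in 8.39%, 8.28% and 8.38% of the miR-22-3p reads, a mean of 8.35 ± 0.0624% (SD, n = 3). Of 69 different substitutions observed, 63 occurred in each library, but 3 of them made up 84.4 ± 0.222% of the internal mismatches. These were A9C, C7A and A17C, named by the hairpin's base, the position from the 5′-end of the read and the base read. They are shown with the changed base in capitals.
miR-22-3p A9C: aagcugccCguugaagaacugu
miR-22-3p C7A: aagcugAcaguugaagaacugu
miR-22-3p A17C: aagcugccaguugaagCacugu

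A9C had 6045, 6739 and 6694 reads (2.67%, 2.79% and 2.89%), a mean of 2.78 ± 0.110%. C7A, which lies in the seed, had 4714.5, 4924.5 and 5371 reads (2.08%, 2.04% and 2.32%), a mean of 2.15 ± 0.152%. A17C had 5238.5, 5209.5 and 4367 reads (2.31%, 2.15% and 1.89%), a mean of 2.12 ± 0.216% (SD, n = 3 for each). The order of C7A and A17C differed between the libraries, and their means differed by less than the SD of either. Without the 3 substitutions, 1.30 ± 0.0164% of the reads had an internal mismatch.

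The next were far rarer, with A1G at 0.127 ± 0.0113% and C8A at 0.106 ± 0.00511%. A-to-G changes, the kind that inosine gives, were found at all 7 A positions up to position 18 and ranged from 0.0113% to 0.127%. After A1G the highest were A15G (0.0554%), A9G (0.0412%), A14G and A2G (0.0298% each), A18G (0.0235%) and A17G (0.0113%). In the seed as a whole, 2.60 ± 0.153% of the reads had a mismatch (SD, n = 3), most of them C7A. An uncalled base occurred in 0.104% of the reads.

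To see whether these substitutions were particular to miR-22-3p, the same substitution was measured at the same read position in the other named miRNAs that have the same base there. A9C was found in 1.38% to 3.78% of the reads of 12 other miRNAs, with a median of 2.82%, and 5 of the 12 were lower than miR-22-3p. A17C ranged from 0.484% to 2.96% over 14 other miRNAs, with a median of 1.42%, and 9 were lower. Both A-to-C changes of miR-22-3p thus lay within the range of other miRNAs with an A at that read position. C7A, by comparison, ranged from 0.300% to 1.21% over 13 other miRNAs with a median of 0.834%, and all 13 were lower than the 2.15 ± 0.152% of miR-22-3p. The rarer C8A lay within the range of 25 others (0.0199% to 0.149%), of which 19 were lower. G13A, at only 0.0603%, was also above all 18 others (0% to 0.0468%).

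**Figure D3:**
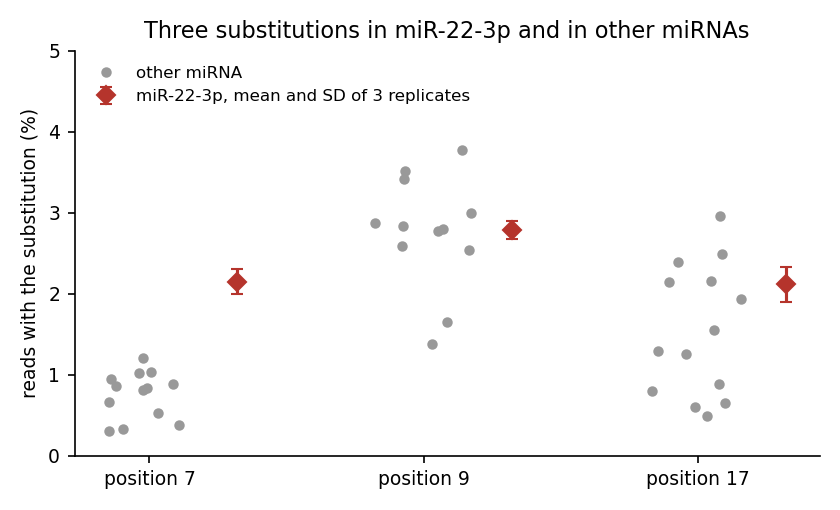
Share of reads (%, y axis) with C7A, A9C and A17C, grouped by position in the read (x axis). Gray points are other named miRNAs with the same base at that position, spread sideways for visibility, and the red diamonds are miR-22-3p with the SD of 3 replicates. miR-22-3p lies among the other miRNAs at positions 9 and 17 and above all 13 of them at position 7.

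A-to-G shares of miR-22-3p were likewise within the range of other miRNAs at the same read position. A1G, for example, had a median of 0.107% over 10 other miRNAs (0.0284% to 0.172%), of which 9 were lower than miR-22-3p. A15G had a median of 0.0515% over 20 others, of which 14 were lower, and A9G a median of 0.0414% over 12 others, of which 6 were lower.

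The shifted forms carry the same bases of the hairpin at other read positions, with far fewer reads. In 2474 reads of miR-22-3p+1 over the 3 libraries, A17C, counted from the start of these reads, had 64 reads (2.59%, 95% Wilson interval 2.03% to 3.29%). This is the hairpin base that is position 18 of the reference form, where A18C was 0.00737%. The A that is position 17 of the reference form is position 16 of miR-22-3p+1, where A16C had 14, 2 and 6 reads in replicates 1, 2 and 3 (0.889% over the libraries, 0.588% to 1.34%). Replicate 1 decided this value, which was 0.479% without it, whereas in 24 other miRNAs A16C ranged from 0.186% to 0.774%.

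The A at position 9 of the reference form is position 8 of miR-22-3p+1, where A8C had 2, 3 and 1 reads (0.243%, 0.111% to 0.528%). This was less than the 2.78% of A9C in the reference form, but above the highest of 20 other miRNAs at position 8 (0.174%, median 0.0660%), a value inside its interval. The C at read position 7 of miR-22-3p+1 is position 8 of the reference form. C7A there had 18 reads (0.728%, 0.461% to 1.15%), compared with 0.106% for C8A and 2.15% for C7A in the reference form.

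In miR-22-3p-1 the A at position 9 of the reference form is position 10. A10C had 1, 1 and 4 of its reads, 6 of 374 in all (1.60%, 0.737% to 3.46%), and 0.840% without replicate 3, while it ranged from 5.13% to 15.2% over 17 other miRNAs. Most miR-22-3p-1 reads already had the mismatching first base described above. The study's aligner allowed 1 mismatch in the body of a read, so these reads could not also carry A10C. Reads at this start without any mismatch numbered only 26, 25 and 32 in the 3 libraries. The share of A10C among all miR-22-3p-1 reads therefore cannot be set against the range of the other miRNAs. The shares thus changed with the position in the read in miR-22-3p+1, while miR-22-3p-1 does not allow this comparison at position 10. In miR-22-5p, A9C was the most frequent substitution, with 19 of 491 reads over the 3 libraries (3.87%, 2.49% to 5.96%).

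**Figure D4:**
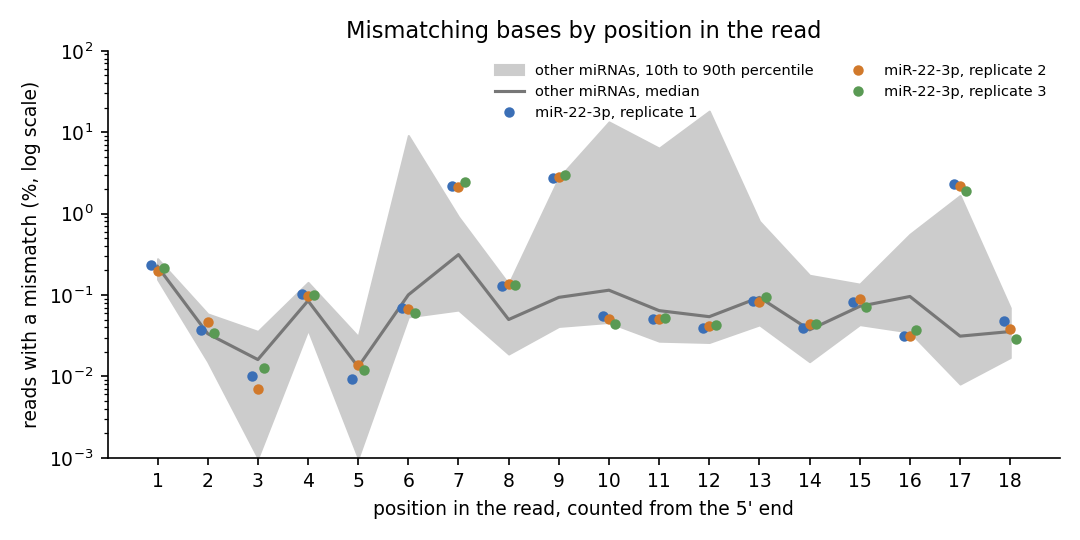
Share of reads with a mismatching base (%, log scale on the y axis) at positions 1 to 18 of the read (x axis). Points are miR-22-3p in the 3 MIN6 libraries, the line is the median and the gray band the 10th to 90th percentile of 76 other named miRNAs whatever their base, with values below 0.001% drawn at the lower edge. miR-22-3p stands above the band at position 7 and near its upper edge or above it at positions 9 and 17. Its mean lies below the median at positions 1, 3, 5, 6, 10 to 13 and 16.

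The total of internal mismatches differed with the bases that a miRNA has at a few read positions. The highest medians of all substitutions in the named miRNAs were those of A12C (18.1%, 16 miRNAs), A10C (13.3%), A6C (9.16%) and A11C (7.90%). miR-22-3p has no A at positions 6, 10, 11 or 12. Among the 77 named miRNAs compared, the 33 without an A at these 4 positions, miR-22-3p included, had a median of 5.63% of reads with an internal mismatch (2.02% to 16.2%). The 29 with 1 such A had a median of 17.6% (11.8% to 71.7%), and the 14 with 2 had a median of 26.9% (19.2% to 31.7%). With 8.35%, miR-22-3p was above 27 of the others without an A there and below each miRNA with at least 1. These positions were chosen after seeing the data, for their high A-to-C shares in these same miRNAs. Those substitutions are part of the total, so its rise with the number of such A bases follows in part from the choice. Their cause was not tested.

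The place of miR-22-3p among other small RNAs was described over 334 dominant 5′-starts. These are starts with at least 1000 reads in each library that hold the most reads within 10 nt on their strand. Reads divided among several loci give several such starts, so the same small RNA can be counted more than once. Several starts, for example, had the same 118 RPM and the same mismatch shares. The shares and medians below are therefore over starts, not over distinct small RNAs. By level miR-22-3p was the sixth of the 334 in each library, above 98.5% of the others. Its share of reads at the exact start, among those within 10 nt, was higher than in 86.2% of the others (median of the others 95.03%). Its share of reads with the most frequent length was higher than in 85.6% of them, with a median of the others of 74.2%.

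Mismatches were fewer than at most of the other starts. An internal mismatch was rarer at 31.2% of the other starts, whose median was 16.03%. A mismatching last base was rarer at 27.9% of them, whose median was 2.98%. Among abundant starts the difference was greater. No other of the 29 most abundant starts had as small a share as the 0.554 ± 0.0185% (SD, n = 3) of miR-22-3p, and the lowest of them was 1.24%. The first with a smaller share was the thirtieth by level, at 2714 RPM. At that start 99.98% of the reads had an internal mismatch, so almost none matched the genome there. Starts of this kind also enter the medians above.

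**Figure D5:**
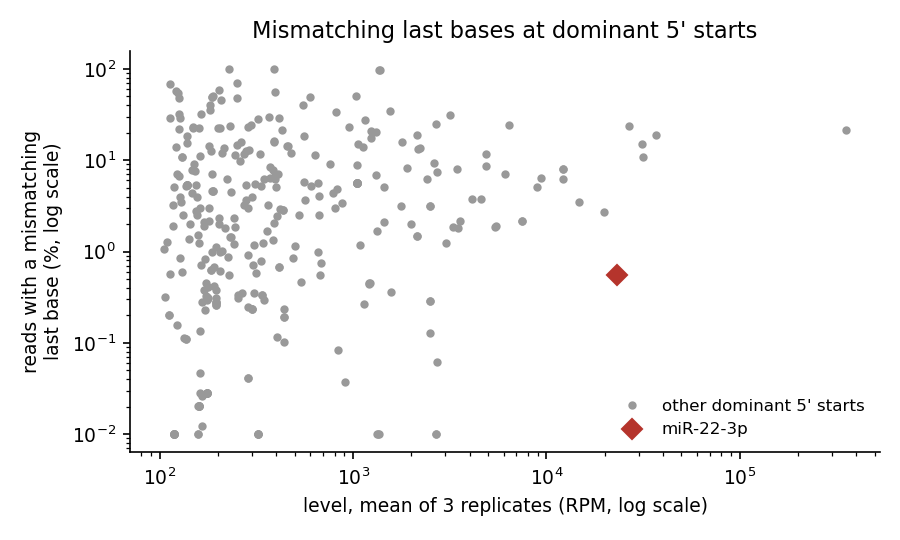
Level (RPM, mean of 3 replicates, log scale on the x axis) and share of reads with a mismatching last base (%, mean of 3 replicates, log scale on the y axis) at 334 dominant 5′-starts, with values below 0.01% drawn at 0.01%. miR-22-3p (red diamond, 23141 RPM and 0.554%) lies below all other starts of similar or higher level.

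The miRNAs nearest to miR-22-3p in level show how far their ends differ. miR-127-3p was next above, with 30060, 26157 and 24426 RPM, compared with 24414, 22359 and 22652 RPM for miR-22-3p. It was higher in each library, but its lowest value and the highest value of miR-22-3p were nearly equal. miR-191-5p was next below with 21261, 20171 and 18515 RPM, and its values did not overlap with those of miR-22-3p.

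The others were miR-27b-3p (31553 ± 1363 RPM) and miR-99b-5p (31246 ± 4580 RPM) above, and miR-148a-3p (14809 ± 831 RPM) and a start that was not named below (12259 ± 1404 RPM, SD, n = 3 for each, chromosome 15, minus strand, mm9 position 68172840). Their shares of reads with a mismatching last base were 10.8% in miR-27b-3p, 15.1% in miR-99b-5p, 23.4% in miR-127-3p, 2.68% in miR-191-5p, 3.50% in miR-148a-3p and 6.23% at the unnamed start. Each of the 6 was above miR-22-3p in each library, by at least 4.60 times. The most frequent length held 61.6% of the reads of miR-27b-3p, 60.9% of miR-99b-5p, 56.1% of miR-127-3p, 75.7% of miR-191-5p, 56.0% of miR-148a-3p and 75.2% of the unnamed start, each below the 97.4% of miR-22-3p.

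A mismatching last base misses any added base that equals the next base of the genome, and this differs between miRNAs. For miR-22-3p that base is U. The cause of the mismatches was not tested.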

How the data were processed

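Small RNA from 3 MIN6 libraries was analysed here, and the authors deposited 1 table of alignments per library. Per the methods, the 3′-adaptor was trimmed with cutAdapt 1.0, reads of 14 to 41 nt were first matched exactly to the genome with Bowtie 0.12.7 (up to 20 loci per read), and the remaining reads were aligned with SHRiMP 2.2.2 to windows around these matches (bedtools 2.17.0). The build is mm9 per the labels. The deposited values are expected counts, that is, reads per distinct alignment, with reads that fit several loci divided. They were not normalized. 99.985% of the hairpin reads were in alignments with a whole read number. Divided reads can add up to a whole number, so this is an upper limit for reads that fit only this locus.

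Reads were summed per 5′-start, arm, length, 3′-end and mismatch with Python 3.11.15, pandas 2.3.3 and numpy 2.4.6, intervals are 95% Wilson intervals from scipy 1.17.1, the fold is from RNAfold 2.7.2, and plots were drawn with matplotlib 3.10.9. RPM are per 1000000 of all mapped reads (9269795 to 10816006 per library). The end coordinate of exact alignments was 1 base too small, unlike that of mismatched ones, and was corrected. A last-base mismatch is a run of mismatches that reaches the 3′-end, and an internal mismatch is any other called base. Reading of the alignments was tested on simulated data, where 2000 of 2000 were recovered. The simulated exact alignments were written with ends 1 base short, so the need for the end correction was not tested. Each simulated read had at most 1 mismatch, so longer tails and combined mismatches were not tested either.

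Other starts were named where exactly 1 RefSeq mature miRNA on that chromosome and strand was not excluded by mismatches over its first 20 bases. For comparisons by read position, the next candidate also had to be excluded by at least 10 reads, a margin set after seeing the data, which left 83 starts with 77 distinct sequences. These comparisons used reads of at least 18 nt for the other miRNAs. The text names both arms, other starts with at least 10 reads in each library, lengths with at least 1% of the reads, each last mismatching base, the 5 most frequent internal substitutions, each A-to-G change, and the 3 dominant starts next above and below in level. miR-26a-5p, miR-182-5p, miR-148a-3p, miR-7a-5p, the substitution G13A and the lesser lengths and starts were named after their values were seen. The member and the lists were chosen with earlier results of these data known. No test was made, because the libraries share 1 condition.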

Additional observations from a re-analysis of the deposited data

How the results depend on the processing

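Of 75 values under other settings, 53 moved by less than the spread between replicates. This count includes values that could not have moved further. Leaving out a replicate cannot shift a mean over the replicates by more than their SD. The shares of 22 nt and of the main 3′-end are the same values and were counted separately. The level of the hairpin (23258 RPM) was 21166 RPM from alignments without a mismatch only, 32507 RPM per 1000000 exact reads, and 36008 RPM without the reads of the most abundant start, an alternative added after seeing the data. The share at the reference start (99.5689%) was 99.6016% from alignments without a mismatch, 99.5813% from whole read numbers and 99.5820% from reads of 18 to 25 nt, which leave out most divided reads. The share of 22 nt and of the main 3′-end (97.4%) was 97.6% from alignments without a mismatch and 8.66% with the ends as deposited, where exact alignments end 1 base early by construction. With dominant starts of at least 100 and 10000 reads, the share of other starts below miR-22-3p was 99.6% and 93.4% for level, 91.7% and 76.3% for the exact start, 32.2% and 11.8% for the last base, 35.6% and 23.7% for internal mismatches, and 83.6% and 89.5% for the most frequent length, the last added after seeing the data. Leaving out each replicate in turn moved the shares of other starts below to 86.2% to 86.8% for the exact start and 85.3% to 85.6% for the most frequent length. The values of shifted forms without 1 replicate were also added after seeing the data. No mismatch share can be had from exact alignments. The 5p arm, with 152 to 173 reads, limits what its lengths and mismatches can show.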
